A study of Populus ussuriensis with 18 samples.

Results

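Roots of Populus ussuriensis taken 12 h after transfer to low-nitrogen (LN) medium were compared with control roots taken at 0 h, across all genes expressed at 1 FPKM or more in at least 3 of the 6 libraries. FPKM counts the sequenced fragments on a gene scaled to its length and to the total of fragments on genes in a library. Of the 30485 genes in the files, 22977 met this rule and 7508 did not. The study followed roots over 18 libraries in 6 groups of 3, and the 24 h LN group is used here beside the 12 h group. All plantlets were clonally propagated in vitro and had rooted for 3 weeks under 16 h of light and 8 h of dark. Control roots came from Woody Plant Medium with nitrate at 10 mM and ammonium at 5 mM. LN roots came from a modified form of this medium with these lowered to 0.05 mM and 0.025 mM. The study's methods describe agar medium for culture, and its results a transfer to liquid media. Whole root systems were taken, so fewer cells of a type and less RNA per cell cannot be told apart.

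Plant roots take up nitrate and ammonium through dedicated membrane transporters. Nitrate is reduced to nitrite and then to ammonium, which glutamine synthetase builds into amino acids. Nitrate also acts as a signal, read in Arabidopsis by NIN-like (NLP) transcription factors that switch on transporter and assimilation genes. Roots respond to a shortage of N with hormone, transcription factor and cell wall genes as well, and many root genes follow a daily rhythm set by the circadian clock.

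No control roots kept on the control medium for 12 h were analysed here, so the N supply and the time since transfer changed together. The transfer itself, and any change between agar and liquid medium, cannot be told apart from N supply. Since 12 h is not a multiple of 24 h and no source used here gives the hour of sampling, N supply and time of day cannot be told apart either. The labels give each group a batch name of its own, so batch and group cannot be told apart. The libraries held 16540561 to 17890382 fragments on genes, with 14.8% to 15% of them in the 100 highest genes of a control library and 11.1% to 11.4% at 12 h. The median of log2(FPKM + 1) over all genes was 2.54 to 2.59 in the control libraries and 2.78 to 2.79 at 12 h. Groups did not overlap in either measure (exact permutation test, two-sided, p = 0.1 for each, the smallest that 3 libraries against 3 allow). Over 16 root identity genes the summed level was 235 to 237 FPKM in the control and 58.9 to 62 FPKM at 12 h, with 4 called down, 3 of them the NPF7.3 copies described below. Without these copies the sums were 32.9 to 36.5 FPKM in the control and 19.8 to 21.7 FPKM at 12 h. Over 7 leaf and shoot genes the sums were 343 to 361 FPKM in the control and 140 to 152 FPKM at 12 h, mostly from a pair of CP29.2 chlorophyll binding protein genes. The guard cell regulator FAMA, the floral gene DEFICIENS and the root meristem regulator PLT2 stayed at 0.24 FPKM or less in every library. The part of these markers in the results below was not tested.

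At 12 h, 1428 genes passed the test upwards (6.21% of those tested) and 602 downwards (2.62%), together 8.83%. A call needed a log2 fold change of 1 or more in size and p under 0.05 after Benjamini-Hochberg adjustment, by limma on log2(FPKM + 1). Without the fold limit, 43.2% of the genes tested passed upwards and 20.4% downwards, and the 6 libraries split without overlap in 68.8%, so only calls past the fold limit are described as rises or falls. The calls with log2 fold changes of 2 or more in size numbered 324 up and 94 down. Genes called up made up 2.71% to 2.75% of all fragments in the control libraries and 8.07% to 8.27% at 12 h. Genes called down fell from 10.6% of the fragments to 3.61% to 3.67%. Of the 100 genes with the highest mean share of fragments in the control, 35 were called down and 2 up, and their share went from 14.8% to 15% in the control to 9.68% to 9.83% at 12 h. Those 100 genes were chosen by their control values, which favours a lower share at 12 h. For the genes called up or down, the calls themselves fix the direction of the share.

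FPKM values are shares of a library, and the median log2 fold change over all genes tested was 0.15, so a fold change is best read against that shift. With quantile normalization the median was -0.02, and 1000 genes were called up and 909 down. Genes that rose were 70.3% of the calls in the first scaling and 52.4% in the second, while no gene called in one direction was called in the other. The rule itself shaped the low end of the list. The third highest of the 6 values was 1.0002 FPKM for the gene just inside the limit and 0.9999 FPKM for the gene just outside it. A set of 669 genes passed with no control library at 1 FPKM, 330 of them called up, and 175 passed with no 12 h library at 1 FPKM, 54 of them called down. The pseudocount of 1 makes the log2 fold changes of such genes smaller than the ratio of their FPKM values.

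**Figure D1:**
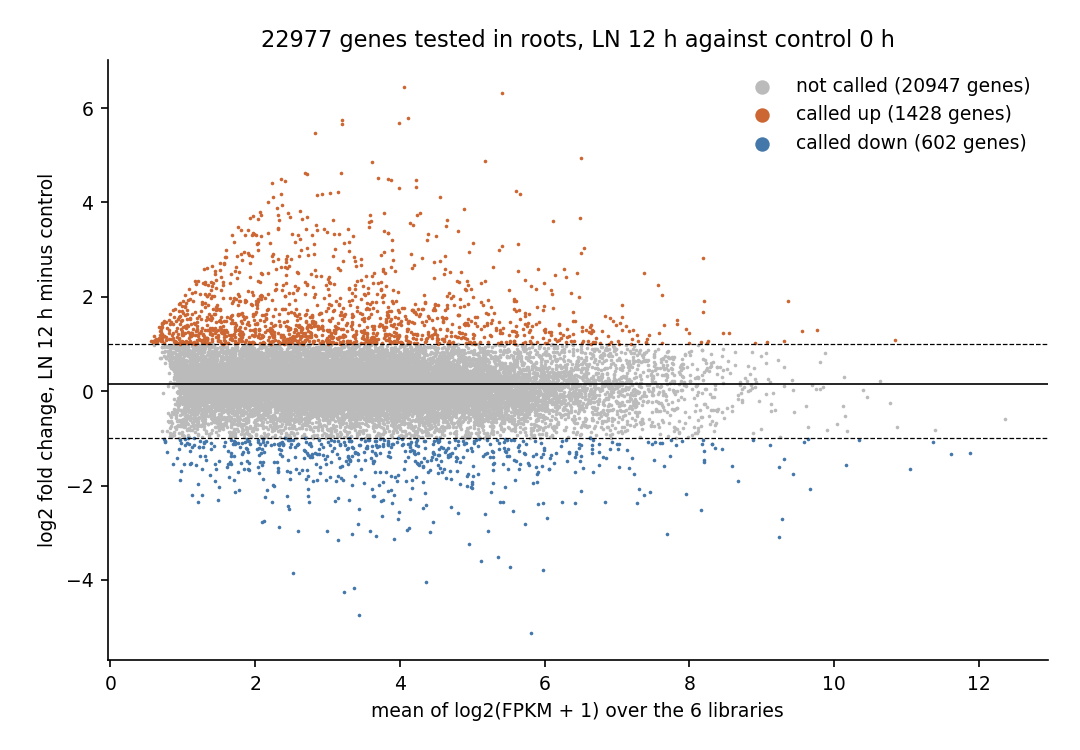
Log2 fold change of each of the 22977 genes tested (LN 12 h minus control, on log2(FPKM + 1)) against its mean of log2(FPKM + 1) over the 6 libraries. Orange points are the 1428 genes called up, blue points the 602 called down and grey points the other 20947; dashed lines mark the fold limits and the solid line the median of 0.15, and the rises reach further from 0 than the falls.

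Nitrate transporters of the NRT1/PTR (NPF) family moved in both directions, with the root-to-shoot loading type NPF7.3 falling in all 3 copies. Of the 32 NPF genes listed, 23 were tested, 4 were called up and 6 down, beside 6.21% and 2.62% over all genes, and their median log2 fold change was -0.45. NPF7.3A (Potri.001G145200), whose Arabidopsis relative loads nitrate into the xylem, measured 134.4, 139.0 and 135.3 FPKM in the control libraries and 23.99, 24.90 and 26.23 FPKM at 12 h. NPF7.3B (Potri.003G088800) measured 46.25, 45.47 and 47.49 FPKM in the control and 7.87, 7.96 and 7.86 FPKM at 12 h. NPF7.3C (Potri.014G179400) measured 17.78, 18.99 and 19.58 FPKM in the control and 6.81, 6.25 and 6.20 FPKM at 12 h. All 3 copies were therefore lower in every 12 h library than in any control library, with log2 fold changes of -2.40 ± 0.06, -2.41 ± 0.05 and -1.42 ± 0.07 (SE, n = 3 per group) and adjusted p of 5.2e-08, 3.8e-08 and 1.0e-06 by limma. Copies that share sequence can share fragments, which leaves the values of single copies less certain. NPF4.4 (Potri.019G067500), NPF5.2 (Potri.002G258700) and NPF5.6 (Potri.006G092000) were also called down, with mean ratios of control to 12 h between 2.09 and 2.65.

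The rises among NPF genes came from genes of low or moderate level. NPF5.4 (Potri.001G027100) measured 0.72, 0.16 and 0.61 FPKM in the control and 19.09, 18.63 and 20.24 FPKM at 12 h, with a log2 fold change of 3.78 ± 0.14 and an adjusted p of 3.2e-07 by limma. For NPF5.4, and for NPF6.4 below, both under 1 FPKM in every control library, the rule for testing already required higher values in each 12 h library. NPF3.1B (Potri.010G126300) went from 11.42, 11.28 and 11.22 FPKM to 33.94, 33.79 and 32.81 FPKM, NPF4.3 (Potri.003G000800) rose 3.04-fold in mean FPKM, and NPF6.4 (Potri.002G225500) rose from 0.04 to 0.17 FPKM to between 1.27 and 1.59 FPKM. The call of NPF6.4 was lost under quantile normalization, at 0.82. The NPF3.1 copy NPF3.1C (Potri.006G034000) had lower values at 12 h, 17.9 against 24.8 FPKM on average, under the fold limit with a log2 fold change of -0.45 ± 0.06. NPF3.1A and NPF3.1D did not meet the rule, the former at 0.13 FPKM or less and the latter at 0.53 to 1.62 FPKM.

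Of the 8 ammonium transporter genes listed, 5 were tested, and the main high-level copy fell. It was the only call in the list (20% down, beside 2.62% over all genes). AMT1;2A (Potri.019G023600), a member of the AMT1 group of root ammonium uptake proteins, measured 156.9, 164.5 and 165.8 FPKM in the control and 49.56, 52.24 and 53.38 FPKM at 12 h. Its log2 fold change was -1.63 ± 0.06 (adjusted p = 3.2e-07 by limma), and it was 163 FPKM on average in the 24 h LN libraries. The level at 12 h was therefore below that of both neighbouring times, by -1.64 on the log2 scale against 24 h (adjusted p = 3.7e-06 by limma). AMT1;1 (Potri.010G063500) and AMT2;1 (Potri.006G102800) had higher means at 12 h, 42.8 against 28.2 FPKM and 15 against 7.39 FPKM, under the fold limit with log2 fold changes of 0.58 and 0.93. AMT2;1 reached 1.01, past the limit, without control replicate 3.

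Nitrite reductase and the root glutamine synthetase, both of the nitrate-to-glutamine route, fell. Of the 12 N assimilation genes listed, 11 were tested, with 4 called up and 4 down (36.4% each), beside 6.21% and 2.62% over all genes. The nitrite reductase gene NIRA (Potri.004G140800) measured 488.9, 477.4 and 494.8 FPKM in the control and 183.9, 170.9 and 178.6 FPKM at 12 h (log2 fold change -1.45 ± 0.06, adjusted p = 5.0e-07 by limma). The root glutamine synthetase gene (Potri.004G085400), which binds ammonium to glutamate and was the highest member of the list, measured 1048.1, 1046.6 and 1006.7 FPKM in the control and 382.0, 382.9 and 387.2 FPKM at 12 h (log2 fold change -1.43 ± 0.05, adjusted p = 3.9e-07 by limma). Both were lower in each 12 h library, and both stood between these levels at 24 h, at 281 and 683 FPKM. Glutamate dehydrogenase 1 (Potri.019G034800) fell 3.4-fold in mean FPKM and the N-terminal glutamine amidohydrolase (Potri.006G051500), a protein-turnover enzyme, 2.99-fold. The 4 genes that rose were both ureide permeases (Potri.008G095500 and Potri.008G095600), which carry N-rich ureides in other plants, and both amidase 1 genes (Potri.013G024100 and Potri.013G024200). Their mean ratios were 2.26 to 3.42, and under quantile normalization only Potri.013G024200 passed the fold limit, at a log2 fold change of 1.07. Potri.013G024100 also lost its call without control replicate 2, at 0.98.

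Regulators of the N response mostly stayed within the fold limit. Of 15 genes listed, 13 were tested and 7.69% were called down, beside 2.62% over all genes. The only call was NLP7 (Potri.001G087900), the main nitrate sensor in Arabidopsis. It measured 28.05, 28.05 and 29.88 FPKM in the control and 9.21, 7.52 and 8.57 FPKM at 12 h (log2 fold change -1.66 ± 0.08, adjusted p = 1.2e-06 by limma). The TGA factors TGA1A, TGA1B and TGA4, relatives of nitrate response regulators of Arabidopsis roots, had log2 fold changes of -0.98, -0.98 and -0.85, and TGA1A and TGA1B passed the limit without LN 12 h replicate 1 at -1.03 and -1.02, as TGA1A did without control replicate 2, at -1.02. Leaving out either library therefore raised the falls in this list from 1 to 3 or 2. NLP8 overlapped between the groups, at 2.91 to 3.64 FPKM in the control and 3.53 to 4.70 FPKM at 12 h. Of the SnRK1 kinase complex, which signals low energy, SnRK1β1, SnRK1G1 and KIN10 had log2 fold changes of -0.72, -0.64 and -0.54, and SnRK1β2 one of 0.92 that reached the limit without LN 12 h replicate 1. The BTB/TAZ protein BT1 gene (Potri.015G087700), a nitrate-responsive scaffold gene in Arabidopsis, had the largest fall among described genes with a mean of 5 FPKM or more and no overlap. It measured 107.8, 103.7 and 97.78 FPKM in the control and 12.78, 12.67 and 11.76 FPKM at 12 h (log2 fold change -2.96 ± 0.07, adjusted p = 3.7e-08 by limma).

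**Figure D2:**
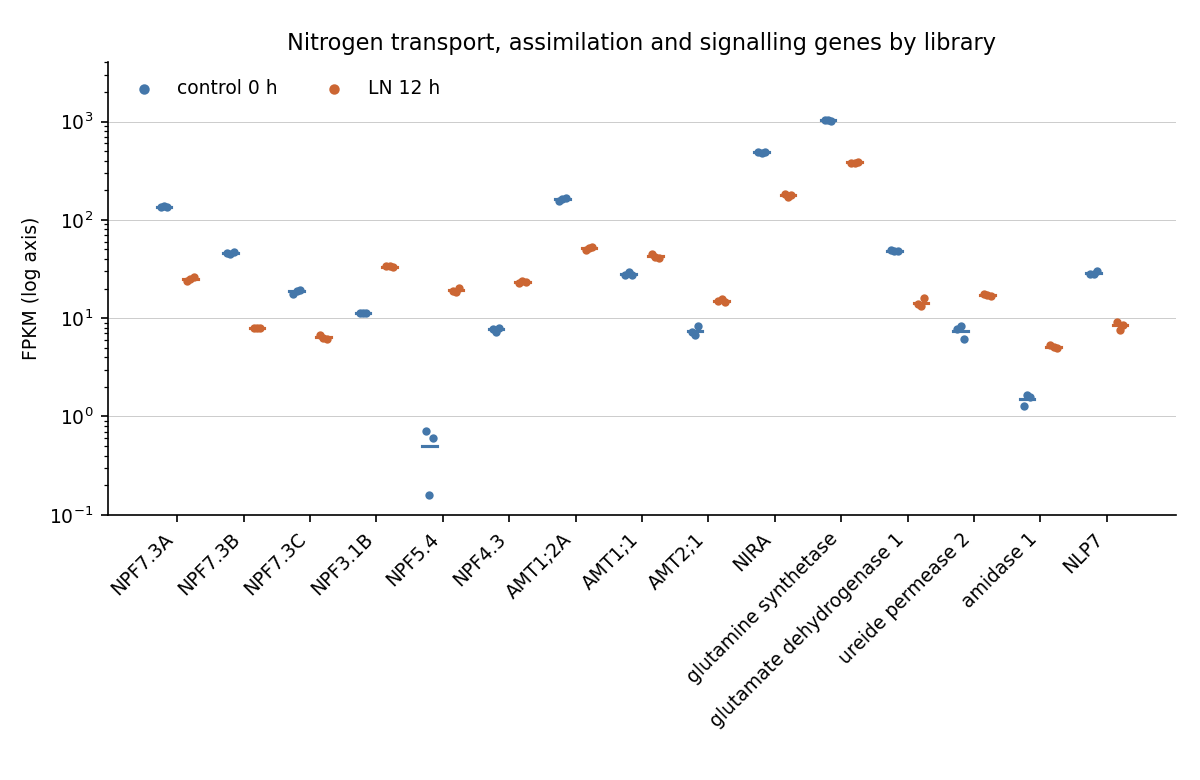
FPKM (log axis) in each library for 15 N transport, assimilation and signalling genes, with control 0 h libraries in blue, LN 12 h libraries in orange and a bar at each mean. NPF7.3A, NIRA and glutamine synthetase lie lower in all 12 h libraries, while NPF5.4 rises from a mean of 0.497 to 19.3 FPKM.

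The lists in these sections come from descriptions in supplementary tables of the study, which hold genes the study picked from these same samples, so their counts are no independent evidence of a direction. Over all 877 tested genes of these tables, 27.7% were called up and 11.4% down, with a median log2 fold change of 0.30. The counts of the lists above and below are to be read against both these shares and the 6.21% up and 2.62% down over all genes.

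Ethylene response (AP2/ERF) factors held the largest number of rises among the 27 lists. Of 89 listed, 69 were tested, 39 were called up (56.5%) and 2 down (2.9%), with a median log2 fold change of 1.12; 22 of the tested members had no control library at 1 FPKM. The largest rises were those of 4 genes that the tables describe as ERF017, of which the study names one ERF018 and one ERF110. ERF018 (Potri.006G138800) measured 0.06, 0.25 and 0.48 FPKM in the control and 65.77, 65.67 and 66.67 FPKM at 12 h (log2 fold change 5.74 ± 0.11, adjusted p = 2.4e-08 by limma). ERF110 (Potri.018G047300) measured 0.10, 0.00 and 0.10 FPKM in the control and 43.97, 47.80 and 47.01 FPKM at 12 h. The ERF017 copies Potri.006G138700 and Potri.006G218200 measured 0.24 FPKM or less in every control library and 22.78 to 25.93 FPKM and 19.99 to 21.32 FPKM at 12 h. All 4 went from near the detection limit to at least 19.99 FPKM in every 12 h library, and at 24 h their means were 9.21, 11.3, 2.49 and 2.66 FPKM, each lower than at 12 h by the limma comparison of both LN groups. Potri.006G138700 and Potri.006G138800 are neighbours by identifier on chromosome 6, and fragments of similar copies may be divided between them.

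Other ERF genes that rose included both genes described as ERF109, a stress- and jasmonate-responsive factor in Arabidopsis roots. ERF109 (Potri.009G101900) reached 9.87 to 10.97 FPKM and Potri.004G141200 13.71 to 15.92 FPKM, from 0.27 FPKM or less in every control library. The 2 that fell were RAP2.3 genes, for factors of oxygen and ethylene signalling in Arabidopsis. RAP2.3 (Potri.014G126100) measured 130.9, 126.0 and 122.2 FPKM in the control and 49.58, 49.94 and 51.06 FPKM at 12 h, and Potri.008G210900 measured 260.2, 270.8 and 257.1 FPKM in the control and 118.7, 118.8 and 124.6 FPKM at 12 h. Their log2 fold changes were -1.31 ± 0.06 and -1.12 ± 0.06, with adjusted p of 7.5e-07 and 1.9e-06 by limma. Of the ethylene synthesis genes, ACS2 (Potri.001G099400) rose from 0.22 to 0.46 FPKM to 5.44 to 5.72 FPKM and ACO1 (Potri.011G020900) from 0.85 to 1.61 FPKM to 5.81 to 6.32 FPKM.

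WRKY and NAC factors also rose more often than they fell, which held over all genes tested as well. Of 27 tested WRKY genes, 12 were called up and 1 down, with a median of 0.89, and 6 of the tested members, WRKY41 among them, had no control library at 1 FPKM. WRKY41 (Potri.003G138600), a defence-related factor, measured 0.79, 0.82 and 0.77 FPKM in the control and 17.24, 17.25 and 17.07 FPKM at 12 h (log2 fold change 3.34 ± 0.05, adjusted p = 1.7e-08 by limma). WRKY75 (Potri.015G099200), known in Arabidopsis from phosphate starvation and root hairs, rose from 1.07 to 1.22 FPKM to 13.58 to 14.12 FPKM. WRKY46 (Potri.002G168700) had 0.27 to 0.64 FPKM in the control and 1.59 to 3.07 FPKM at 12 h, a call that was lost under quantile normalization at 0.90. WRKY21 (Potri.003G111900) was the member that fell, from a mean of 8.9 to 3.55 FPKM, and a second member was called down without control replicate 1 or LN 12 h replicate 1. Of 11 tested NAC genes, 6 were called up (54.5%) and 0 down, with a median of 1.23 over the list. Of the tested NAC members 2 had no control library at 1 FPKM. The 6 that rose were NAC47 (Potri.019G031400), at 24.6 against 8.58 FPKM, and 5 genes described as JUNGBRUNNEN 1, a longevity and stress factor of Arabidopsis. Potri.003G149700 was the highest of these 5, at 40 against 9 FPKM. NAC86 (Potri.001G144400), outside this list, rose from a mean of 2.04 to 6.37 FPKM.

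MYB factors moved in both directions, with 21 of 71 tested called up (29.6%), 11 down (15.5%) and a median of 0.58. These shares were near the 27.7% and 11.4% over the genes of the supplementary tables. Under quantile normalization 17 were called up and 14 down. Of the tested members 12, MYB108 among them, had no control library at 1 FPKM. MYB59 (Potri.010G064000), which in Arabidopsis promotes potassium and nitrate transport through NPF7.3, measured 48.16, 45.67 and 46.62 FPKM in the control and 5.03, 5.26 and 5.22 FPKM at 12 h (log2 fold change -2.95 ± 0.06, adjusted p = 2.2e-08 by limma). The neighbours PHL5A (Potri.016G048000) and PHL5B (Potri.016G047900) measured 51.10 to 62.13 FPKM and 58.47 to 64.71 FPKM in the control, and 6.95 to 7.76 FPKM and 13.34 to 14.98 FPKM at 12 h. MYB51A (Potri.008G089200) went from 3.53 to 4.69 FPKM to 0.19 FPKM or less, and MYB51B, which did not meet the rule, from 0.34 to 1.34 FPKM to 0.04 FPKM or less. All of these were lower in each 12 h library than in any control library. For MYB51A, under 1 FPKM in every 12 h library, the rule for testing already required this. Rises were led by MYB108 (Potri.014G117000) at 9.86 to 12.08 FPKM against 0.48 FPKM or less in the control, and MYB111 (Potri.014G122700), a flavonol synthesis regulator outside this list, rose from 0.22 to 0.25 FPKM to 10.33 to 13.56 FPKM. MYB44B (Potri.017G017600) averaged 7.04 FPKM in the control and 8.1 FPKM at 12 h and did not pass the test (adjusted p = 0.074 by limma).

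Among other factor families, bHLH genes had 8 of 44 tested called up (18.2%) and 2 down (4.55%), or 6 and 5 under quantile normalization. The bZIP genes had 3 of 23 up and 3 down (13% each), and GATA genes 3 of 10 up (30%). Over the genes of the supplementary tables the shares were 27.7% up and 11.4% down. GATA8 (Potri.008G038900) lost its call without control replicate 1 or LN 12 h replicate 3, at 0.92 and 0.98, and without the latter library 1 GATA gene was called down. The medians of these lists were 0.30, 0.00 and 0.50, beside 0.15 over all genes. The bHLH genes that fell are regulators of iron supply in Arabidopsis: ILR3 (Potri.011G030900), at 149 against 67.1 FPKM, and ORG2 (Potri.016G037300), at 2.54 against 0.553 FPKM. The light-signalling factor HY5 rose in both bZIP copies, Potri.006G251800 from 0.88 to 1.86 FPKM to 10.47 to 12.68 FPKM and Potri.018G029500 from 4.79 to 5.65 FPKM to 18.21 to 18.47 FPKM. bZIP1 (Potri.002G115900) fell from a mean of 11.4 to 2.59 FPKM, and bZIP53 (Potri.008G106700), the highest of that list, had 108 FPKM in both groups. SBP6 (Potri.010G154300), a squamosa promoter-binding-like factor, fell from a mean of 15.3 to 5.27 FPKM. The GRAS factor SCL21 (Potri.005G143900) rose from 1.97 to 3.45 FPKM to 67.65 to 71.05 FPKM (adjusted p = 1.4e-07 by limma). bHLH25, WRKY28 and TCP9 had log2 fold changes of 0.78, 0.91 and 0.32, under the fold limit.

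**Figure D3:**
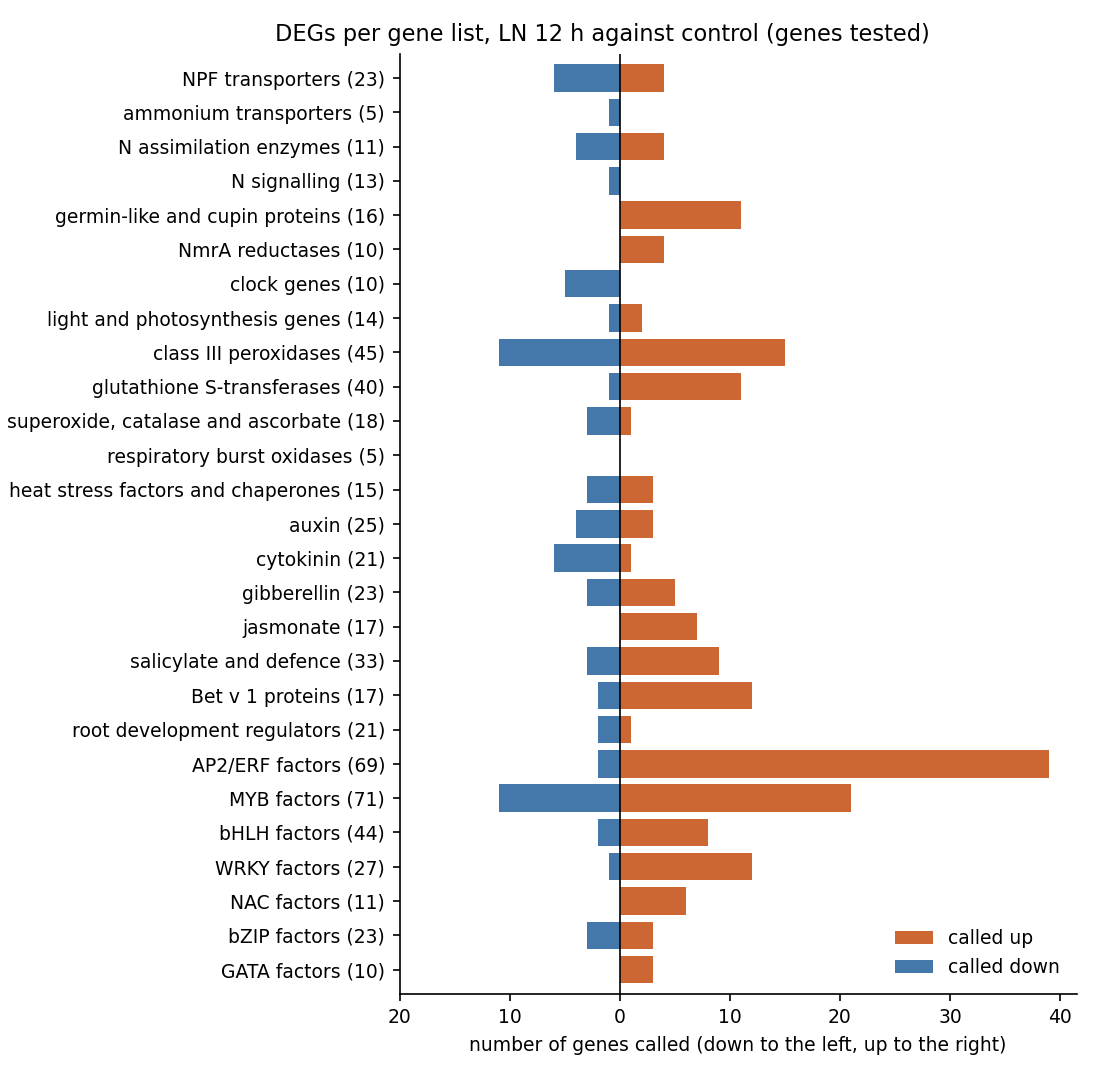
Number of genes called up (orange, to the right) and down (blue, to the left) at 12 h in each of the 27 gene lists, with the genes tested in parentheses. The AP2/ERF bar of 39 up is the longest, and the MYB factors (21 up, 11 down) and class III peroxidases (15 up, 11 down) extend to both sides.

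Among clock genes, both copies of LHY and of GIGANTEA and the single LUX gene fell at 12 h. Of the 10 listed, all were tested and 5 were called down, beside 2.62% over all genes. LHY, a morning-phased core repressor, has 2 copies here. Potri.014G106800 measured 17.67, 17.36 and 19.75 FPKM in the control and 2.66, 3.14 and 2.70 FPKM at 12 h (log2 fold change -2.33 ± 0.08, adjusted p = 1.9e-07 by limma). Potri.002G180800 measured 14.14, 14.09 and 15.04 FPKM in the control and 3.30, 3.05 and 3.80 FPKM at 12 h (log2 fold change -1.82 ± 0.08, adjusted p = 6.1e-07 by limma). No 12 h library reached any control library. The 24 h means were 18.9 and 17.5 FPKM, and the 12 h levels lay below them by a log2 difference of -2.38 and -2.08 (adjusted p = 1.9e-06 and 5.0e-06 by limma).

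GIGANTEA, a clock protein with its peak late in the day in Arabidopsis, was lower at 12 h in both copies. Potri.005G196700 averaged 21.2 FPKM in the control, 9.14 FPKM at 12 h and 20.3 FPKM at 24 h, and Potri.002G064400 averaged 31.5, 13.9 and 27.1 FPKM. LUX (Potri.006G034900), of the evening complex, measured 44.63, 47.89 and 49.93 FPKM in the control and 24.84, 23.31 and 20.90 FPKM at 12 h, but its 24 h mean of 25.9 FPKM did not differ from 12 h past the threshold (adjusted p = 0.12 by limma). Its 12 h call was lost without control replicate 3 and without LN 12 h replicate 3, at log2 fold changes of -0.98 and -0.95. EARLY FLOWERING 3 (Potri.006G233800), the partner of LUX, averaged 39.4, 32.7 and 24.1 FPKM at 0, 12 and 24 h. REVEILLE 2 (Potri.004G074300) had its highest values at 12 h, 10.81 to 11.36 FPKM against 6.55 to 6.99 FPKM in the control, with a log2 fold change of 0.63 under the fold limit. The other REVEILLE genes, REVEILLE 5 and both REVEILLE 8 copies, had log2 fold changes between -0.31 and 0.34.

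**Figure D4:**
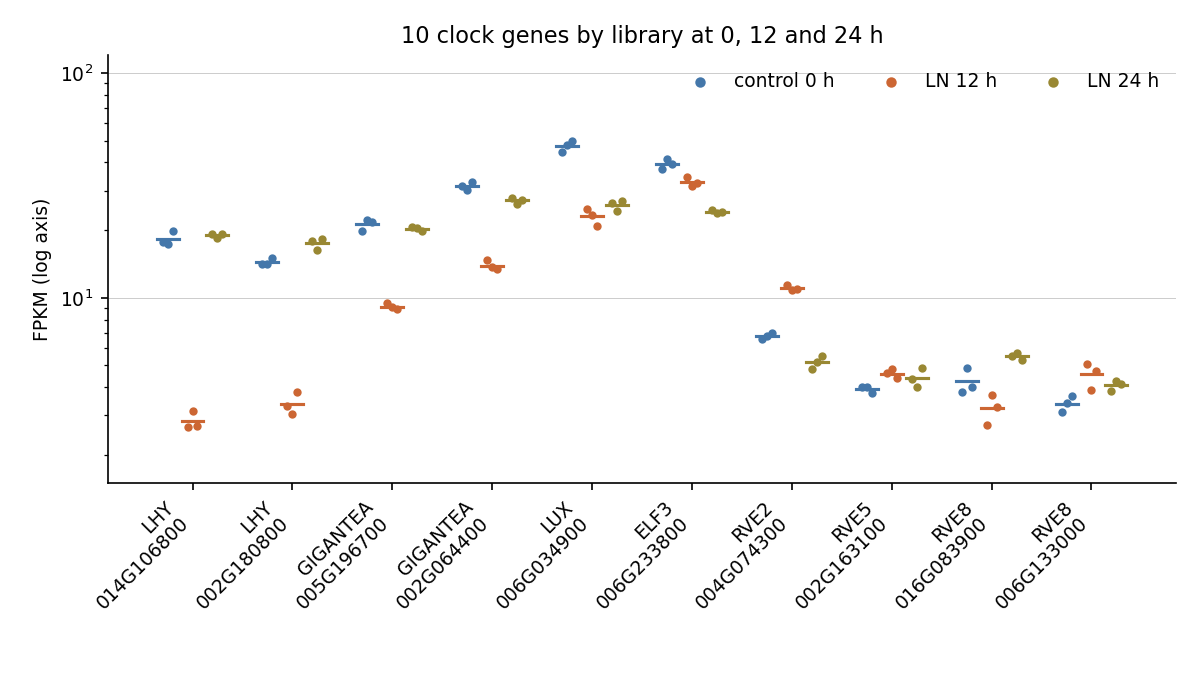
FPKM (log axis) of the 10 clock genes in each library at control 0 h (blue), LN 12 h (orange) and LN 24 h (olive), with a bar at each mean. Both LHY and both GIGANTEA copies dip at 12 h and lie near their control level at 24 h, while LUX stays low at 24 h.

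Of 17 tested jasmonate genes, 7 were called up and the other 10 were not called. The median log2 fold change was 0.60, and 5 of the tested members had no control library at 1 FPKM. An allene oxide synthase gene (Potri.014G038700), for an early enzyme of jasmonate synthesis, measured 5.77, 6.20 and 6.63 FPKM in the control and 45.36, 43.93 and 46.24 FPKM at 12 h (log2 fold change 2.68 ± 0.07, adjusted p = 4.9e-08 by limma). The second copy (Potri.002G130700) differed little, at 17.5 against 19.4 FPKM. Of the TIFY (JAZ) repressors, which jasmonate signalling both induces and removes, TIFY 10A (Potri.006G139400) measured 15.13, 14.76 and 15.62 FPKM in the control and 60.19, 64.40 and 65.36 FPKM at 12 h. TIFY 10B (Potri.003G068900) and TIFY 10C (Potri.001G166200) went from 0.23 FPKM or less to between 2.25 and 4.95 FPKM, and TIFY 9 (Potri.001G062500) from a mean of 1.93 to 9.51 FPKM. TIFY 5A (Potri.011G083900) was at 0 fragments in all control libraries and at 1.47 to 2.31 FPKM at 12 h, at least 28.4-fold higher against a floor of 3 fragments over the control group. MYC4 (Potri.002G176900), a jasmonate response factor, rose from 0.12 to 0.13 FPKM to 2.18 to 2.29 FPKM. At 24 h, 4 of 17 tested members were below their 12 h level past both limits.

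Proteins of the Bet v 1 group, small ligand-binding and defence-related proteins named after a birch allergen, included many rises. Of 17 tested, 12 were called up (70.6%) and 2 down, with a median of 1.56, and 4 of the tested members had no control library at 1 FPKM. A run of 4 neighbours on chromosome 11 rose together: Potri.011G025900 from 5.77 to 7.33 FPKM to 78.87 to 86.62 FPKM, Potri.011G026000 from 4.56 to 6.77 FPKM to 193.1 to 195.0 FPKM, MLP423 (Potri.011G026100) from 0.19 to 0.38 FPKM to 10.56 to 12.57 FPKM and Potri.011G026200 from 10.52 to 11.24 FPKM to 209.5 to 217.9 FPKM. Potri.004G021100 rose most, from 0.65, 0.09 and 0.18 FPKM to 63.15, 65.49 and 65.40 FPKM (log2 fold change 5.67 ± 0.14, adjusted p = 5.2e-08 by limma). Against these rises, the most abundant member, MLP-like protein 31 (Potri.010G111000), fell from 3927.3, 3890.7 and 3698.6 FPKM to 1796.4, 1820.5 and 1830.5 FPKM. Its log2 fold change of -1.08 ± 0.06 went to -0.12 under quantile normalization. As these copies are similar in sequence, the split of fragments among them is uncertain.

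Germin-like and cupin proteins, many of them extracellular enzymes of the cell wall, had 11 of 16 tested members called up and a median of 1.72, and 7 of the tested members had no control library at 1 FPKM. A germin-like gene of subfamily 1 (Potri.009G140400) had the largest rise of all genes tested. It measured 0.38, 1.01 and 1.05 FPKM in the control and 151.7, 158.2 and 153.3 FPKM at 12 h (log2 fold change 6.44 ± 0.14, adjusted p = 3.7e-08 by limma), and 53.7 FPKM on average at 24 h. Another member of that subfamily, Potri.013G052100, rose from 8.90 to 11.45 FPKM to 82.63 to 86.61 FPKM, while the highest member, germin-like protein 5-1 (Potri.013G000500), had 237 against 276 FPKM. Reductases of the NmrA group, which act in flavonoid and lignan synthesis, had 4 of 10 tested called up (40%) with a median of 0.81. Among them were the leucoanthocyanidin reductase genes Potri.008G116500 at 205 against 73 FPKM and Potri.015G050200 at 78.5 against 34 FPKM.

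Class III peroxidases, secreted enzymes that build or loosen the cell wall, changed in both directions, with 15 of 45 tested called up (33.3%) and 11 down (24.4%). The shares were 27.7% and 11.4% over the genes of the supplementary tables and 6.21% and 2.62% over all genes, and 5 of the tested members had no control library at 1 FPKM. The rises were led by POD4 (Potri.013G083600), peroxidase 52 (Potri.014G143200) and PODN1 (Potri.016G125000). POD4 measured 3.66, 4.29 and 4.89 FPKM in the control and 69.90, 71.27 and 71.72 FPKM at 12 h (log2 fold change 3.77 ± 0.09, adjusted p = 4.0e-08 by limma). Peroxidase 52 went from 3.74 to 4.84 FPKM to 64.86 to 69.54 FPKM and PODN1 from 5.35 to 5.81 FPKM to 62.29 to 67.13 FPKM. The falls were led by peroxidase 9 (Potri.002G031200), which measured 94.65, 98.22 and 95.17 FPKM in the control and 19.65, 16.65 and 17.77 FPKM at 12 h (log2 fold change -2.35 ± 0.07, adjusted p = 1.2e-07 by limma). Both peroxidase 10 genes fell, Potri.004G144600 from a mean of 28.8 to 5.85 FPKM and Potri.009G106400 from 55.5 to 15.8 FPKM, and at 24 h they stood at 24.3 and 36.5 FPKM. Peroxidase 12 (Potri.005G195600), the highest of the family, averaged 336 FPKM in the control and 679 FPKM at 12 h, and its call was lost without control replicate 1, at a log2 fold change of 0.98, and without LN 12 h replicate 3, just under the limit. POD19 did not meet the rule, at 0.77 FPKM or less.

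**Figure D5:**
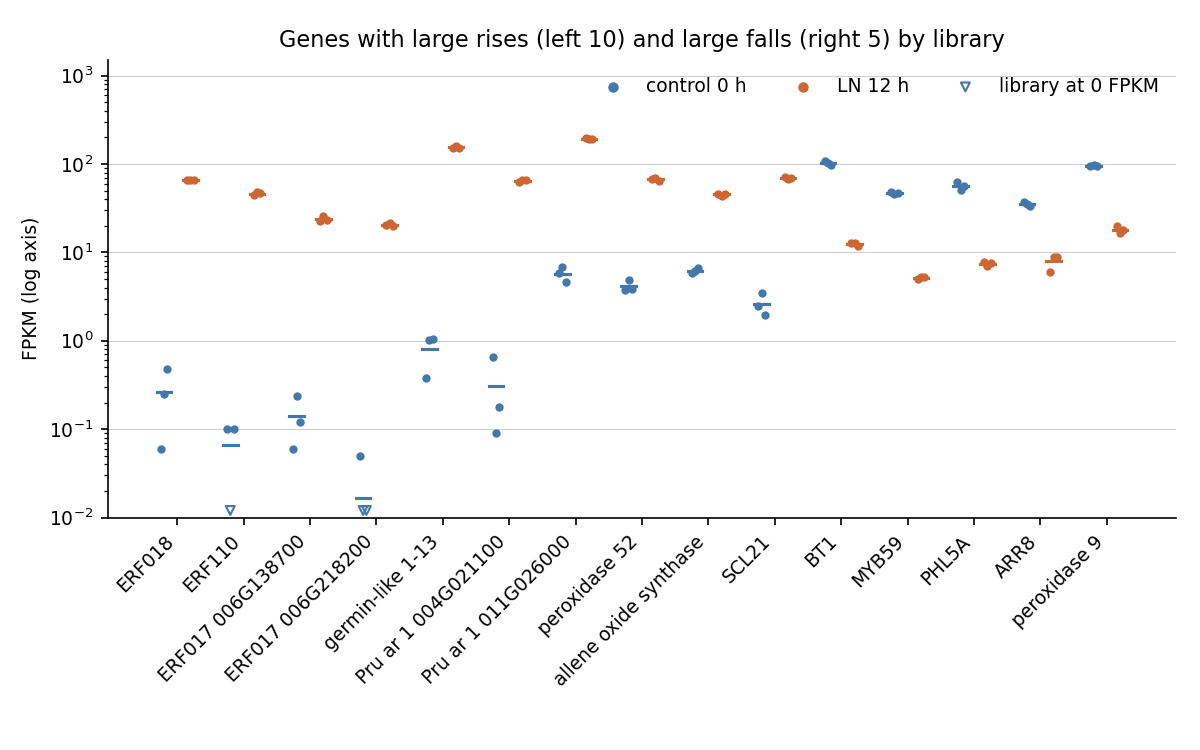
FPKM (log axis) in each library for 10 genes that rose and 5 that fell at 12 h, with control libraries in blue, LN 12 h libraries in orange, a bar at each mean and open triangles at the foot for control libraries at 0 FPKM. The 12 h libraries of a gene lie close together, and in none of the 15 genes do the groups overlap. No overlap was a condition for naming the largest described rises and falls, and it held for 68.8% of all genes tested.

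Glutathione S-transferases, which attach glutathione to toxic or reactive compounds, had 11 of 40 tested called up (27.5%) and 1 down (2.5%). Over the genes of the supplementary tables the shares were 27.7% and 11.4%. Without LN 12 h replicate 2, 2 were called down, and the median of the list was -0.31. The members that rose were thus set against a larger number with lower values. Microsomal GST 3 (Potri.017G140900) measured 4.11, 2.38 and 4.11 FPKM in the control and 39.24, 47.27 and 48.26 FPKM at 12 h (log2 fold change 3.36 ± 0.17, adjusted p = 1.4e-06 by limma), and 155 FPKM on average at 24 h. GST23A, GST23B, GSTU45 and GSTU8 rose by ratios of 2.58 to 4.61 in mean FPKM. GSTU17 (Potri.010G032800) lost its call without control replicate 2 or LN 12 h replicate 3, at log2 fold changes of 0.91 and 0.90, and under quantile normalization at 0.82. Of the superoxide, catalase and ascorbate enzymes, 1 of 18 tested rose (5.56%) and 3 fell (16.7%), beside 6.21% and 2.62% over all genes. The falls were catalase-2 (Potri.005G100400) from a mean of 45.6 to 13.3 FPKM, catalase isozyme 1 (Potri.002G009800) from 498 to 216 FPKM and iron superoxide dismutase 2 (Potri.015G110400) from 34.2 to 12.3 FPKM. The gene that rose, iron superoxide dismutase 3 (Potri.005G089600), lost its call without control replicate 2, at 0.76, without LN 12 h replicate 3, just under the limit, and under quantile normalization, at 0.77. The 5 tested respiratory burst oxidase genes had log2 fold changes of 0.14 to 0.92. Heat stress factors and chaperones had 3 of 15 called up (20%) and 3 down (20%), beside the same shares over all genes. Both heat stress factor B-3 genes were among those that rose, and 2 of the tested members had no control library at 1 FPKM. The small heat shock protein gene Potri.001G192600 and the ClpB1 gene Potri.015G057000, 1 of each direction, lost their calls when single libraries were left out, at 0.97 to 0.99 and -0.99 to -0.96.

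Cytokinin genes fell more often than they rose, with 6 of 21 tested called down (28.6%), 1 up (4.76%) and a median of -0.85. Over the genes of the supplementary tables the shares were 11.4% down and 27.7% up, and over all genes 2.62% and 6.21%. The response regulators ARR8, ARR3 and ARR5, which cytokinin induces and which dampen its signal, were among those that fell. ARR8 (Potri.001G027000) measured 37.47, 35.27 and 33.53 FPKM in the control and 5.98, 8.93 and 8.77 FPKM at 12 h (log2 fold change -2.05 ± 0.13, adjusted p = 6.7e-06 by limma). ARR3 (Potri.008G193000) measured 78.49, 75.53 and 79.90 FPKM in the control and 25.29, 28.83 and 29.30 FPKM at 12 h. Both were lower in each 12 h library and had nearly the same means at 24 h, 7.62 and 26.8 FPKM. The cytokinin hydroxylase (Potri.004G100400), which makes root trans-zeatin types, fell 3.19-fold, and cytokinin dehydrogenase 7 (Potri.006G221000), which degrades cytokinin, 3.04-fold. The activating enzyme LOG5 (Potri.002G012500) was the member that rose, 2.3-fold, and a second was called up without LN 12 h replicate 1. Under quantile normalization 11 of the 21 genes were called down and LOG5 lost its call, at 0.94.

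Auxin and gibberellin genes moved in both directions. Of 25 tested auxin genes, 3 were called up (12%) and 4 down (16%), with a median of -0.15. Over the genes of the supplementary tables the shares were 27.7% and 11.4%. Of the tested auxin members 3 had no control library at 1 FPKM. The repressor IAA14 (Potri.008G161200), which limits lateral root formation in Arabidopsis, fell from 56.14 to 62.61 FPKM to 15.82 to 16.76 FPKM, and ARF9 (Potri.001G088600) from a mean of 76.7 to 31.5 FPKM. The efflux carrier gene PIN1a (Potri.006G037000) rose from a mean of 7.06 to 20.6 FPKM. Of 23 tested gibberellin genes, 5 were called up (21.7%) and 3 down (13%), and 3 of the tested members had no control library at 1 FPKM. Both genes of the activating enzyme gibberellin 3-beta-dioxygenase 1 fell, Potri.001G176600 from 8.95 to 9.93 FPKM to 1.03 to 1.15 FPKM and Potri.006G247700 from 11.48 to 12.50 FPKM to 3.58 to 4.38 FPKM. The inactivating gibberellin 2-beta-dioxygenase 1 (Potri.001G378400) rose from a mean of 2.89 to 9.83 FPKM. The gibberellin-regulated peptides GASA1 (Potri.002G022500) and GASA12 (Potri.017G124200) rose to 5.9 and 6.02 FPKM, from means of 0.736 and 0.424 FPKM, while another snakin gene (Potri.002G022700) fell from 8.47 to 1.39 FPKM.

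Salicylate and defence genes had 9 of 33 tested called up (27.3%) and 3 down (9.09%), with a median of -0.34 that lay on the other side of 0 from the count of calls. These shares were near the 27.7% and 11.4% over the genes of the supplementary tables. Under quantile normalization 6 were called up and 6 down. Of the tested members of this list 3 had no control library at 1 FPKM. Glutaredoxin-C9 (Potri.007G134800) rose from a mean of 2.55 to 17.2 FPKM and pathogenesis-related protein 1 (Potri.T131500) from 0.02 FPKM or less to 3.39 to 3.73 FPKM. Of the DMR6-like oxygenases, which inactivate salicylate, 4 rose and both Potri.017G049000 and Potri.017G048700 fell. The last of these lost its call without control replicate 2 or LN 12 h replicate 3, at -0.95 and -0.98. ALD1 (Potri.002G091500), of pipecolate synthesis, rose from 0.08 FPKM or less to 1.05 to 1.32 FPKM, a call lost under quantile normalization at 0.75. For ALD1 and pathogenesis-related protein 1, under 1 FPKM in every control library, the rule for testing already required higher values in each 12 h library.

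Few root development regulators passed the fold limit. Of 21 tested, 1 was called up (4.76%) and 2 down (9.52%), beside 6.21% and 2.62% over all genes and 27.7% and 11.4% over the genes of the supplementary tables, and the median was -0.41. SCARECROW (Potri.006G114200), a determinant of the endodermis, measured 9.20, 10.58 and 10.96 FPKM in the control and 4.19, 3.39 and 3.93 FPKM at 12 h (log2 fold change -1.22 ± 0.09, adjusted p = 1.3e-05 by limma). SHORT-ROOT (Potri.017G025900), which acts with it, had 6.07 against 3.7 FPKM and a log2 fold change of -0.60. The other fall was LOB domain-containing protein 4 (Potri.007G066700), from a mean of 4.14 to 0.971 FPKM. AIL6 (Potri.007G011600), a meristem-type AP2 factor, rose from a mean of 2.91 to 10.7 FPKM. The light and photosynthesis list had 2 of 14 tested called up, which were the HY5 genes, and 1 down, a CP29.2 gene (Potri.006G099500) at 183 against 55.2 FPKM.

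Several genes the study names outside these groups rose from very low control levels. The nuclease gene RNS1 (Potri.008G086700), which acts in phosphate recycling, rose from 0.76 to 1.24 FPKM to 19.76 to 20.63 FPKM, and the cellulase gene CEL2 (Potri.001G083200) from 0.33 to 0.49 FPKM to 10.98 to 11.35 FPKM. The cytochromes P450 CYP81D8 (Potri.005G143800) and CYP87A2 (Potri.009G064900) reached 6.31 and 5.45 FPKM from means of 0.121 and 0.158 FPKM. All of these were higher in each 12 h library than in any control library. For CEL2, CYP81D8 and CYP87A2, under 1 FPKM in every control library, the rule for testing already required this. BGLU17, WBC11, RLK and TPS-CIN did not meet the rule, TPS-CIN with 0.70 to 1.23 FPKM at 12 h and the other 3 with 0.40 FPKM or less. Copper methylamine oxidase (Potri.015G082900), an amine oxidase, was among the 10 largest falls of described genes, from a mean of 64.2 to 14.7 FPKM.

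Most of the changed genes have no description in the tables used. These were 1185 of the genes called up and 502 of those called down. Among them, Potri.006G002200 averaged 3.77 FPKM in the control and measured 348.5, 382.9 and 407.0 FPKM at 12 h, and Potri.019G094100 measured 1.12, 1.06 and 1.85 FPKM in the control and 125.2, 128.1 and 130.0 FPKM at 12 h. Potri.001G176000 had the largest fall of all genes tested, from 318.6, 340.4 and 327.2 FPKM to 8.51, 8.49 and 8.49 FPKM (log2 fold change -5.12 ± 0.06, adjusted p = 4.7e-09 by limma). Potri.011G041300 fell from 49.31 to 59.54 FPKM to 0.51 to 1.76 FPKM.

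The 12 h roots also differed from the 24 h LN roots, a comparison without the control in which both groups had the same medium. Over 23077 genes, 268 (1.16%) were higher at 12 h and 312 (1.35%) lower, 2.51% in all. Of the 70 AP2/ERF genes tested there, 16 were higher at 12 h, as were 7 of 27 WRKY genes and 4 of 17 Bet v 1 genes. Of the 45 peroxidases, 5 were lower at 12 h and 2 higher. MYB59 stood at 5.17 FPKM at 12 h and 5.1 FPKM at 24 h (adjusted p = 0.84 by limma), while NPF7.3A was lower at 12 h than at 24 h, at 25 against 78.5 FPKM.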

How the data were processed

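RNA from roots was sequenced as short read pairs. The study's methods give Bowtie2 and TopHat2 for alignment to the genome of Populus trichocarpa, while the submitters' processing notes name Bowtie2 2.2.3 and HISAT2 2.1.0. The counting tool is not named. FPKM values of 30485 genes were deposited. Every gene's values were within 0.001 of whole fragments for 1 gene length and 1 library total, so fragments were recovered, and at the median gene length (1707 bp) 3 fragments equal 0.102 FPKM, which covers counting error only.

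As the unit was FPKM, limma 3.58.1 in R 4.3.3 was run on log2(FPKM + 1), on genes reaching 1 FPKM in 3 or more of the 6 libraries, in place of the count test of the study's methods. Its thresholds were kept (log2 fold change of 1 or more in size, Benjamini-Hochberg adjusted p under 0.05). Tables and figures were made with Python 3.11.15, numpy 2.4.6, pandas 2.3.3 and matplotlib 3.10.9. The steps were tested on simulated data. Replicates are labelled biological, but nothing says which share plants, and p-values measure the spread between these samples.

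The 27 gene lists were made from descriptions, protein domains and transcription factor families in the study's supplementary tables, of which 1 is held in part. The genes, lists and rules were chosen with earlier results of these data known. Genes named were those the study names with an identifier, its 20 listed transcription factors, the 10 largest rises and 10 largest falls with a description, a mean of at least 5 FPKM and no overlap, 2 rises and 2 falls without a description, up to 4 called genes per direction and the highest gene of each list, and all 10 clock genes. Genes cited as further list members, GID1C and the neighbour runs were chosen after their values were seen. Alternatives were other pseudocounts, filters, scalings and thresholds, limma with a variance trend, all 18 libraries, a replicate block, each library left out, and limma-voom on recovered fragments with at least 10 in 3 libraries. No reference genome was used, and no sequences or promoter motifs were analysed here.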

Additional observations from a re-analysis of the deposited data

Results flagged for a closer look

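Levels at 12 h of LN differed from those at 24 h for 580 genes by the direct limma comparison of both groups, with 268 higher at 12 h and 312 lower. Time on LN, time of day and batch cannot be told apart in this comparison. Among the clock genes and the genes with the largest described rises and falls, the following passed the same thresholds. Higher at 12 h were ERF genes, with a log2 difference (12 h minus 24 h) of 2.85 for ERF017 (Potri.006G138700), 2.72 for ERF018, 2.57 for ERF017 (Potri.006G218200), 2.18 for Potri.004G141200 and 1.95 for ERF110. The allergen-like gene Potri.004G021100 differed by 1.69 and the germin-like gene Potri.009G140400 by 1.51. Lower at 12 h were the LHY copies Potri.014G106800 and Potri.002G180800, by -2.38 and -2.08, and the GIGANTEA copy Potri.005G196700, by -1.07. Also lower were peroxidase 10 (Potri.004G144600) by -1.89, gibberellin 3-beta-dioxygenase 1 (Potri.001G176600) by -1.71, NPF7.3A by -1.61 and copper methylamine oxidase (Potri.015G082900) by -1.29. Adjusted p by limma for these 14 genes ran from 1.6e-06 to 1.6e-05.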

How the results depend on the processing

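Under the alternatives the count of genes called up, 1428, and down, 602, moved by over 1.5 times in at least one direction under some alternatives. With no limit on the fold change, 9932 were called up and 4686 down. Limma-voom on recovered fragments, which also differs in its filter and its test, called 2628 up and 1032 down with library totals, and 2034 up and 1433 down with median ratios. Quantile normalization gave 909 down, and 1000 up. A pseudocount of 0.1 gave 2139 up and 870 down, and for 12 h against 24 h it gave 459 higher and 538 lower. Leaving out 1 library gave 1409 to 1494 up, 605 to 623 down, 258 to 287 higher at 12 h than at 24 h and 306 to 327 lower. Same-numbered replicates of the 2 groups did not deviate together (r across genes of -0.147, -0.025 and -0.047), and with the replicate block the counts were 1428 up and 602 down, and 268 and 312 against 24 h. Of 191 named genes tested, 153 kept their direction and call in every alternative run. Directions turned only for genes near 0: under quantile normalization GST F11 (Potri.002G015100) at 0.09, REVEILLE 5 (Potri.002G163100) at -0.06, NLP8 at -0.01, MYB44B at -0.01 and bZIP53 (Potri.008G106700) at -0.09; WRKY22 (Potri.003G132700) at -0.08 with median ratios of FPKM or fragments; and bZIP53 at -0.16 and -0.17 with those, and between -0.02 and 0.03 with 1 library left out. The cause of these shifts was not tested. Genes under 1 FPKM in most libraries rest on few fragments and were not tested. The promoter motif description was not run.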

Other observations

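Position along the chromosomes belongs to no comparison above and was looked at after the calls were known. Of 17782 pairs of tested genes that follow each other by identifier on a chromosome, 157 were both called up, 44 both down and 48 in opposite directions. Runs of at least 4 called genes in a row numbered 10, with 9 up and 1 down. Over all genes tested 6.21% were called up and 2.62% down. The numbers of pairs and runs that these shares alone would give were not worked out. The run that fell on chromosome 1 holds Potri.001G176000 and, at its end, the gibberellin 3-beta-dioxygenase gene Potri.001G176600. Another run, of 5 genes on chromosome 13, holds the gibberellin receptor gene GID1C (Potri.013G028700), which rose from a mean of 13.1 to 29.6 FPKM. By chromosome, 5.95% of the tested genes were called on chromosome 18 and 12.8% on chromosome 13, beside 8.83% over all genes. Calls on chromosome 13 were 97 up and 15 down. Genes next to each other are not independent, and tandem copies may share fragments.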
